A study of Rattus norvegicus with 9 samples.

Results

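The aryl hydrocarbon receptor and its Cyp1 target enzymes were followed in rat lung under mechanical ventilation and pure oxygen. The members were every probe set annotated to Cyp1a1, Cyp1a2, Cyp1b1 or Ahr, which gave 12 probe sets of 8740 and 4 genes of the 4736 that had a probe set with a single gene symbol. Total RNA was hybridised to 9 oligonucleotide arrays, from lungs labelled as mechanically ventilated with 100% oxygen, mechanically ventilated with 21% oxygen, breathing spontaneously in 100% oxygen, and breathing spontaneously in 21% oxygen. Each of these 4 groups held 2 samples, lettered a and b. Sample b of mechanical 100% oxygen had arrays A and B, whose average counted as 1 sample. The sources used here give no strain, age, duration or ventilator setting. Whether the lettered samples are separate animals is not stated, and the p-values then describe only how far these samples scatter, perhaps for technical reasons.

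The receptor is a transcription factor that rests in the cytosol with an Hsp90 chaperone, enters the nucleus when a ligand binds, pairs with Arnt and binds short response elements beside its target genes. Cyp1a1, Cyp1a2 and Cyp1b1 are its classic targets and encode monooxygenases that oxidise polycyclic aromatic compounds, several endogenous lipids and steroids. In lung, Cyp1a1 is known as an inducible enzyme of endothelial and epithelial cells, Cyp1b1 as an enzyme found largely outside the liver, and Cyp1a2 as chiefly a liver enzyme.

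On the GRCr8 assembly the RefSeq gene table places Cyp1a1 at chr8:66991940-66998014 and Cyp1a2 at chr8:66971261-66978149, so the neighbours lie 13790 bases apart. Cyp1b1 lies at chr6:21093927-21103091 and Ahr at chr6:57961423-57998901. RefSeq promoter windows, running from 250 bases before to 50 bases after the annotated start, were matched for 3 of the 4 genes, namely Cyp1a2, Cyp1b1 and Ahr. The window of Cyp1b1, the member with the most tested probe sets, is shown because it is the matched window that holds the receptor's core motif GCGTG. It spans chr6:21094315-21094614 of GRCr8 on the plus strand, within the annotated span of the gene. The start used for the window is therefore an inner one, after the gene's first base at 21093927. Capitals mark each match to that core on either strand.

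Cyp1b1: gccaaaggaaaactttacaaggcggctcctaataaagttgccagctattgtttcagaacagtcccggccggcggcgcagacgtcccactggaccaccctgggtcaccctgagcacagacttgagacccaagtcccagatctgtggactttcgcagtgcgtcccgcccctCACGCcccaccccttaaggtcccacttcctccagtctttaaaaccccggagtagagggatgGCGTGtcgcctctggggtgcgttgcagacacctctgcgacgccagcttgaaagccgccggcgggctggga

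The forward match began 20 bases before that inner start and the reverse match 81 bases before it. The forward match also completed the longer motif TNGCGTG, which overlaps the core. The windows of Cyp1a2 and Ahr held neither motif on either strand. The core stood in 29.7% of the 33469 RefSeq promoter windows and the longer motif in 4.891% of them, so a match by itself is common, and it describes the letters of the window without showing a bound site.

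The members differed in what the array could measure. Of the 12 probe sets, 5 passed the filter on low signal, which lay at an intensity of about 112, and 7 did not and were not tested. Those 5 were the single Cyp1a1 set, 3 of 4 Cyp1b1 sets and 1 of 3 Cyp1a2 sets. None of the 4 Ahr sets passed. For comparison, the brightest reading among 15 bacterial control probe sets was 140.2, so readings of that size can occur without a rat transcript. In bulk lung RNA, fewer cells that express a gene and less RNA per cell cannot be told apart.

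Cyp1a1 was lower in 100% than in 21% oxygen in either way of breathing, and higher under mechanical than under spontaneous breathing at either oxygen level. Its probe set, E00778cds_s_at, read 441 and 319 in mechanical 100% oxygen, 1215 and 1083 in mechanical 21% oxygen, 144 and 117 in spontaneous 100% oxygen, and 695 and 597 in spontaneous 21% oxygen. The 4 groups did not overlap. How many of all probe sets separate in this way with 2 samples a group was not counted, here or for the genes below. The readings in spontaneous 100% oxygen were the lowest and lay close to the filter limit and to the brightest bacterial control, so folds against that group rest on a signal near background. Group means were 380.1 ± 86.3 in mechanical 100%, 1149 ± 93.0 in mechanical 21%, 131 ± 19.1 in spontaneous 100% and 646 ± 69.9 in spontaneous 21% oxygen (SD, n = 2 each).

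**Figure D1:**
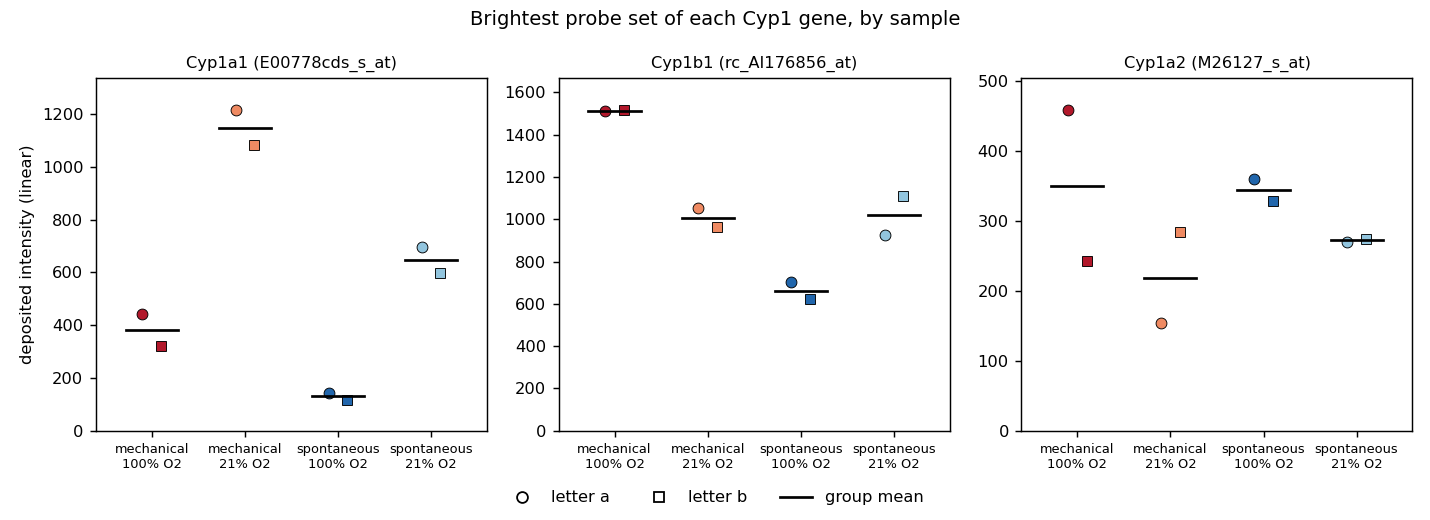
The deposited linear intensity of the brightest probe set of Cyp1a1, Cyp1b1 and Cyp1a2 is plotted for each sample (circle, letter a; square, letter b), with a bar at the mean of each group of 2. Cyp1a1 was highest in mechanical 21% oxygen (1215 and 1083), Cyp1b1 in mechanical 100% oxygen (1514 and 1515), and the Cyp1a2 samples of the ventilated groups overlapped.

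Changes are given as differences of log2(intensity + 40), a scale that understates folds at low signal, with their standard errors. In pure oxygen, Cyp1a1 fell by 2.01 ± 0.20 during spontaneous breathing (adjusted p = 8.1e-04), or 0.249 times on the scale of intensity + 40 that each such ratio uses. In that comparison 7.06% of the 5244 tested probe sets were called higher and 9.71% lower. Under mechanical ventilation it fell by 1.51 ± 0.20 in 100% relative to 21% oxygen (adjusted p = 0.0016, 0.350 times), where 20.7% of probe sets were called higher and 14.4% lower. The interaction, the oxygen change under mechanical minus that under spontaneous breathing, was 0.49 (95% interval −0.17 to 1.16, adjusted p = 0.24), so for Cyp1a1 a difference between the oxygen changes was not detected within that interval. In the interaction 16.9% of probe sets were called higher and 10.5% lower.

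Mechanical ventilation at 100% oxygen raised Cyp1a1 by 1.29 ± 0.20 over spontaneous breathing (adjusted p = 0.0051, 2.44 times), in a comparison with 16.6% of probe sets called higher and 10.4% lower. At 21% oxygen the change was 0.80 ± 0.20 (adjusted p = 0.038, 1.74 times), with 7.00% of probe sets called higher and 7.49% lower. The call at 21% oxygen was lost without mechanical 21% letter a (0.72, adjusted p = 0.18) or letter b (0.87, adjusted p = 0.12), without spontaneous 21% letter a (0.90, adjusted p = 0.074) or letter b (0.69, adjusted p = 0.15), and without spontaneous 100% letter a (0.80, adjusted p = 0.050). The calls at 100% oxygen and for oxygen in either way of breathing held whichever of the 8 samples was left out. Leaving out a sample of a compared group leaves 1 sample there, assumed to vary like the other groups.

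With both factors changed, mechanical 100% against spontaneous 21% oxygen, Cyp1a1 differed by −0.72 (95% interval −1.19 to −0.25), and the adjusted p of 0.052 just missed the threshold of 0.05. Here 7.49% of probe sets were called higher and 7.02% lower. The order of Cyp1a1 levels was therefore mechanical 21%, spontaneous 21%, mechanical 100% and spontaneous 100% oxygen from high to low. The neighbours spontaneous 21% and mechanical 100% did not differ past the test, and quantile scaling moved that difference to −0.88 (adjusted p = 0.020).

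**Figure D2:**
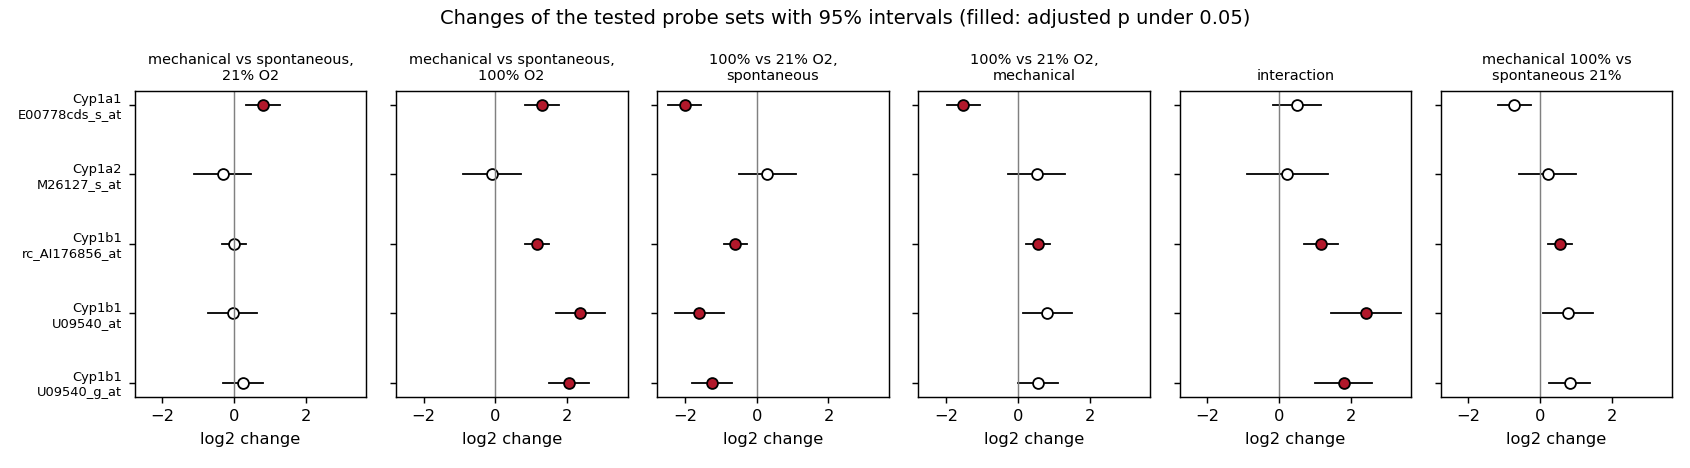
Points are log2 changes of the 5 tested probe sets in the 6 comparisons and lines are their 95% intervals, with filled points where the adjusted p was under 0.05. Cyp1a1 was called lower in 100% oxygen in either way of breathing, whereas the Cyp1b1 sets were called lower in spontaneous 100% oxygen and higher in mechanical 100% relative to spontaneous 100% oxygen.

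Cyp1b1 had a different pattern from Cyp1a1. It was highest in mechanical 100% oxygen and lowest in spontaneous 100% oxygen, and its oxygen change differed between the ways of breathing. The brightest set, rc_AI176856_at, read 1514 and 1515 in mechanical 100%, 1052 and 962 in mechanical 21%, 704 and 621 in spontaneous 100%, and 927 and 1112 in spontaneous 21% oxygen. Its 21% oxygen groups overlapped each other, and the other 2 groups lay apart above and below them. Group means were 1515 ± 0.485 in mechanical 100%, 1007 ± 63.7 in mechanical 21%, 663 ± 58.4 in spontaneous 100% and 1019.6 ± 130.5 in spontaneous 21% oxygen (SD, n = 2 each). The near-equal values in mechanical 100% oxygen include the average of arrays A and B, which read 1482 and 1548.

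The oxygen change of Cyp1b1 under mechanical ventilation exceeded that under spontaneous breathing by 1.16 ± 0.20 (95% interval 0.69 to 1.63, adjusted p = 0.0050), and this call held whichever sample was left out but not with the lot line of the array descriptions as a block (1.09, adjusted p = 0.14). At 100% oxygen, mechanical ventilation raised Cyp1b1 by 1.15 ± 0.14 (adjusted p = 0.0021, 2.22 times), again whichever sample was left out. At 21% oxygen the change was −0.01 (95% interval −0.35 to 0.32, adjusted p = 0.96), and its sign turned under quantile scaling (0.0026) and cyclic loess (0.0046).

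The oxygen changes of Cyp1b1 within one way of breathing were called with less margin. In spontaneously breathing lungs it fell by 0.59 ± 0.14 in 100% oxygen (adjusted p = 0.030). That call was lost without spontaneous 100% letter a (−0.67, adjusted p = 0.068) or letter b (−0.50, adjusted p = 0.13) and without spontaneous 21% letter b (−0.46, adjusted p = 0.11). In ventilated lungs it rose by 0.57 ± 0.14 in 100% oxygen (adjusted p = 0.017). This call was lost without mechanical 100% letter a (0.57, adjusted p = 0.072) or letter b (0.57, adjusted p = 0.058), without mechanical 21% letter a (0.63, adjusted p = 0.051) or letter b (0.51, adjusted p = 0.096), under quantile scaling (0.41, adjusted p = 0.058) and under cyclic loess (0.34, adjusted p = 0.087). Mechanical 100% exceeded spontaneous 21% oxygen by 0.56 ± 0.14 (adjusted p = 0.037), a call that remained past the threshold in 1 of the 8 fits with a sample left out, the one without spontaneous 21% letter b, while the other 7 fits gave changes of 0.43 to 0.56 and adjusted p-values up to 0.16.

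A further 2 tested sets of Cyp1b1 gave the same order at its ends. U09540_at read 571 and 679 in mechanical 100%, 355 and 315 in mechanical 21%, 138 and 52.8 in spontaneous 100%, and 342 and 352 in spontaneous 21% oxygen. U09540_g_at read 630.0 and 729 in mechanical 100%, 551 and 360.0 in mechanical 21%, 158 and 111 in spontaneous 100%, and 351 and 387 in spontaneous 21% oxygen. In each set the mechanical 100% samples were the highest of the 8 and the spontaneous 100% samples the lowest, with the 21% groups overlapping. The spontaneous 100% readings of U09540_at lay below the brightest bacterial control reading, and those of U09540_g_at lay just above and below it, so changes and interactions of these sets rest on a group near background and their sizes are not exact.

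The interaction was 2.41 ± 0.42 for U09540_at (adjusted p = 0.0050) and 1.80 ± 0.34 for U09540_g_at (adjusted p = 0.0072). Mechanical ventilation at 100% oxygen raised them by 2.36 ± 0.30 (adjusted p = 0.0022) and 2.05 ± 0.24 (adjusted p = 0.0018), and spontaneous 100% oxygen lowered them by 1.59 ± 0.30 (adjusted p = 0.012) and 1.24 ± 0.24 (adjusted p = 0.015). U09540_g_at lost that last call without spontaneous 100% letter b (−1.05, adjusted p = 0.072) and without spontaneous 21% letter b (−1.18, adjusted p = 0.055). Unlike the brightest set, neither was called for oxygen under mechanical ventilation, with changes of 0.82 (adjusted p = 0.066) for U09540_at and 0.56 (adjusted p = 0.11) for U09540_g_at. These sets come from one gene and are not independent replicates, and over the 8 samples, which share that gene's RNA, they correlated at r of 0.95 to 0.97 with each other and of 0.44 to 0.63 with Cyp1a1.

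**Figure D3:**
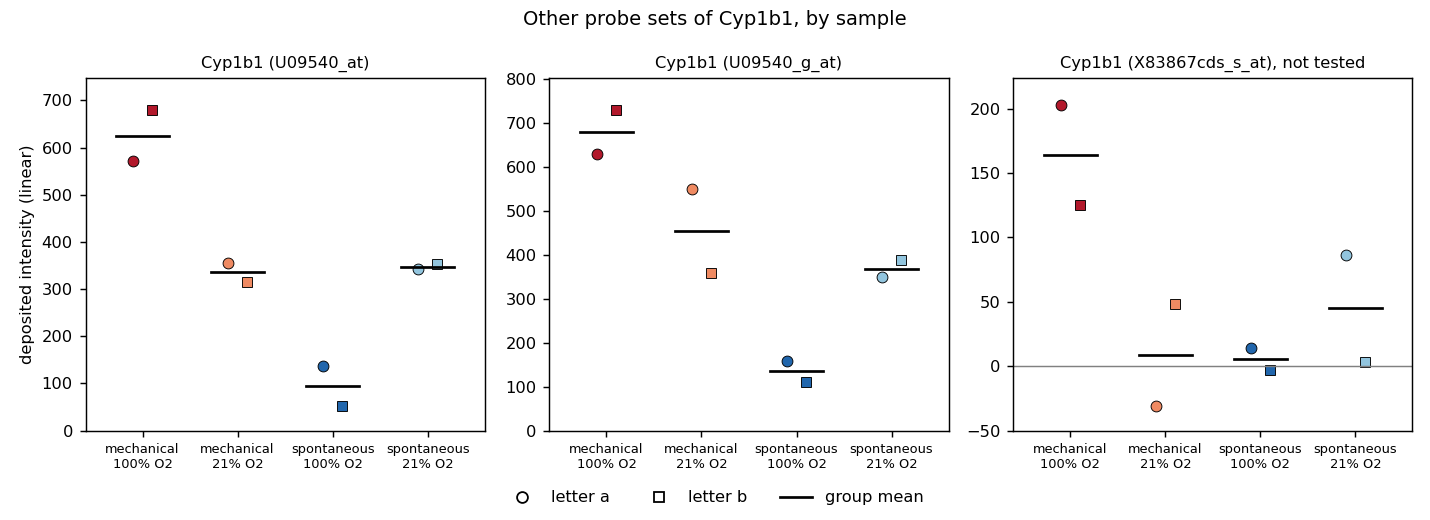
Deposited linear intensities of the other 3 Cyp1b1 probe sets are plotted by sample, with a bar at each group mean and a line at 0 where values fell below it. Mechanical 100% oxygen was highest in each panel (571 and 679 for U09540_at), and the X83867cds_s_at set was too dim to be tested.

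The fourth set of Cyp1b1, X83867cds_s_at, lay below the filter. It read 203 and 125 in mechanical 100%, −31.0 and 48.2 in mechanical 21%, 14.2 and −2.83 in spontaneous 100%, and 86.2 and 3.49 in spontaneous 21% oxygen. Its mechanical 100% samples were again the brightest, while 7 of the 8 samples lay under the brightest bacterial control reading.

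Cyp1a2 gave no call in any of the 6 comparisons. Its tested set, M26127_s_at, read 458 and 242 in mechanical 100%, 153 and 284 in mechanical 21%, 359 and 329 in spontaneous 100%, and 269.6 and 274 in spontaneous 21% oxygen. The samples of the ventilated groups overlapped, and arrays A and B of the same mechanical 100% sample read 349 and 134, a gap wider than that between any pair of group means. The widest change was 0.53 for 100% over 21% oxygen under mechanical ventilation (95% interval −0.27 to 1.32, adjusted p = 0.27), an interval that holds both 0 and the change of 0.57 measured for Cyp1b1. The other sets of Cyp1a2, E01184cds_s_at and K03241cds_s_at, ranged from −35.5 to 13.1 and were at or below 0 on 6 and 7 of the 9 arrays. They and M26127_s_at thus disagreed on whether the transcript was detected. Whether the signal of M26127_s_at comes from Cyp1a2 was not tested, so the lack of a call does not show Cyp1a2 to be unchanged.

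Ahr itself was below the filter in each of its 4 probe sets, and no comparison of its level was made. AF082124_s_at ranged from −71.7 to 89.8 and AF082126_at from −11.3 to 32.6, at or below 0 on 5 and 3 of the 9 arrays. U04860_at ranged from −160 to −23.5 and AF082125_s_at from −784 to −494, below 0 on every array. Such readings leave the level of the transcript unmeasured and do not show it to be absent.

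Among the partners and regulators of the receptor, 6 of the 14 genes listed were on the array under a single symbol and 2 of those were tested. Arnt, the nuclear partner, read 467 and 261 in mechanical 100%, 209.6 and 197 in mechanical 21%, 345 and 274 in spontaneous 100%, and 346 and 253 in spontaneous 21% oxygen, and was called in none of the 6 comparisons. Hsp90ab1, which encodes the chaperone that holds the receptor in the cytosol, read 6113 and 7477 in mechanical 100% oxygen, against 15184 and 16820 in mechanical 21%, 12192 and 17467 in spontaneous 100%, and 20266 and 17112 in spontaneous 21% oxygen. Its mechanical 100% samples were the lowest of the 8. It fell by 1.24 ± 0.19 in mechanical 100% relative to mechanical 21% oxygen (adjusted p = 0.0026), by 1.11 ± 0.19 relative to spontaneous 100% (adjusted p = 0.0064) and by 1.46 ± 0.19 relative to spontaneous 21% oxygen (adjusted p = 0.0029). Under quantile scaling these changes shrank to −0.72, −0.64 and −0.68, each still called (adjusted p = 0.0027, 0.0071 and 0.0071). The call against spontaneous 100% oxygen was lost without mechanical 100% letter a (−0.98) and with the lot line as a block (−0.76, adjusted p = 0.067). It was also lost among arrays without the line (−0.76), which include 1 of mechanical 100% oxygen. Among those arrays the call against mechanical 21% oxygen was lost too (−0.89). Its interaction of −0.89 (adjusted p = 0.041) lost its call in 12 of 19 alternatives, and it was not called in the other 2 comparisons. Ahrr, Tiparp and Ugt1a6 were not analysed here.

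Of 15 other known targets of the receptor, mostly phase 2 enzymes, 6 were on the array and 5 were tested. In mechanical against spontaneous breathing at 100% oxygen 2 were called higher and 1 lower, beside 16.6% and 10.4% of all probe sets, with a list median of 0.26 beside 0.11 over all 3181 tested genes. At 21% oxygen 1 was higher and 1 lower (shares 7.00% and 7.49%, median 0.18 beside −0.05). Pure oxygen gave none higher and 1 lower in spontaneous breathing (shares 7.06% and 9.71%, median −0.10 beside −0.05). Under mechanical ventilation it gave 2 higher and 1 lower (shares 20.7% and 14.4%, median 0.01 beside 0.12). The interaction had 1 higher and 1 lower (shares 16.9% and 10.5%, median 0.09 beside 0.15), and mechanical 100% against spontaneous 21% oxygen had 2 higher and none lower (shares 7.49% and 7.02%, median −0.30 beside 0.09).

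Xdh, which encodes xanthine dehydrogenase, had the largest changes of these targets. It read 5711 and 5656 in mechanical 100%, 3829.5 and 3697 in mechanical 21%, 2631 and 2307 in spontaneous 100%, and 6158 and 7918 in spontaneous 21% oxygen. Its oxygen change was −1.49 ± 0.14 in spontaneous breathing (adjusted p = 6.7e-04) and 0.59 ± 0.14 under mechanical ventilation (adjusted p = 0.014), and the interaction was 2.08 ± 0.20 (adjusted p = 4.5e-04). Like Cyp1b1 it was lowest in spontaneous 100% oxygen, but unlike Cyp1b1 it was highest in spontaneous 21% oxygen. The call under mechanical ventilation was lost without mechanical 100% letter a (0.58, adjusted p = 0.072) or letter b (0.60, adjusted p = 0.053) and without mechanical 21% letter a (0.61, adjusted p = 0.057) or letter b (0.56, adjusted p = 0.077), while the interaction was called in each of 19 alternatives.

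Nqo1, a quinone reductase, read 2259 and 2646 in mechanical 100%, 2490.5 and 2368 in mechanical 21%, 1483 and 1749 in spontaneous 100%, and 1769.9 and 1682 in spontaneous 21% oxygen, so each ventilated sample lay above each spontaneous one, a separation not counted over all probe sets. It rose by 0.59 ± 0.13 with mechanical ventilation at 100% oxygen (adjusted p = 0.017, and 0.070 under quantile scaling), a call lost without mechanical 100% letter b (0.48, adjusted p = 0.077) or spontaneous 100% letter a (0.47, adjusted p = 0.076). Its change at 21% oxygen was 0.48 ± 0.13 (adjusted p = 0.048), a call lost in 16 of 20 alternatives. Aldh3a1, an aldehyde dehydrogenase, was called in no comparison of the fit reported, with changes between −0.45 and 0.00. Relative to mechanical 21%, mechanical 100% oxygen was called lower under quantile scaling (−0.53, adjusted p = 0.041) and cyclic loess (−0.56, adjusted p = 0.035). Relative to spontaneous 21% oxygen it was called lower under these scalings too (−0.60 and −0.61, adjusted p = 0.0496 and 0.048). Gsta1, a glutathione transferase, fell by 0.61 ± 0.12 in mechanical 100% relative to mechanical 21% oxygen (adjusted p = 0.0068), with an adjusted p of 0.055 without mechanical 100% letter a (−0.53). Nfe2l2, the transcription factor Nrf2, rose by 0.68 ± 0.17 in mechanical 100% relative to spontaneous 21% oxygen (adjusted p = 0.031), a call lost in 11 of 21 alternatives.

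**Figure D4:**
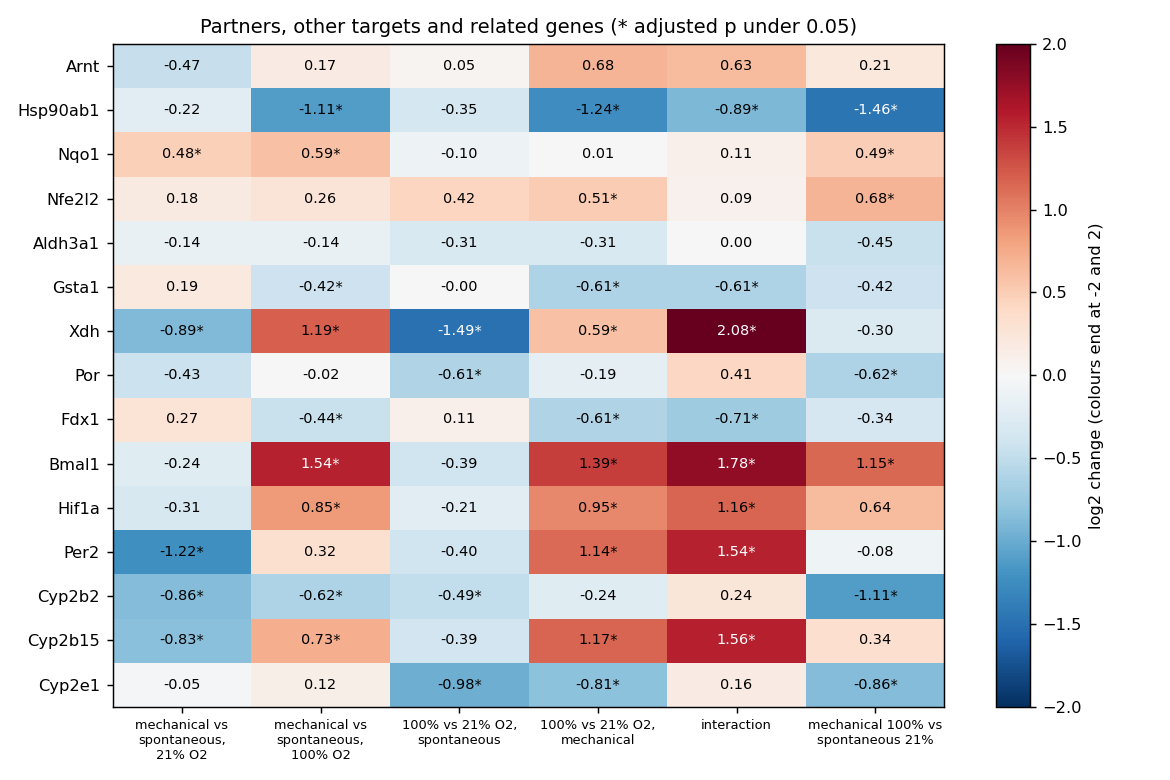
Cells give the log2 change of 15 partner, target and related genes in each of the 6 comparisons, coloured from −2 to 2 and starred where the adjusted p was under 0.05. Hsp90ab1 was negative in every comparison involving mechanical 100% oxygen, while Xdh, Bmal1, Per2 and Cyp2b15 had interactions between 1.54 and 2.08. Bmal1 passed the filter mainly through mechanical 100% oxygen, so its stars in comparisons involving that group support no result.

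Of the proteins that pass electrons to P450 enzymes, all 5 listed genes on the array were tested, none was called higher in any of the 6 comparisons, none was called lower for ventilation at 21% oxygen, and 1 was called lower in each of the other 5, in which 7.02% to 14.4% of all probe sets were. Por, the reductase that serves the microsomal P450 enzymes, read 3216 and 3721 in mechanical 100%, 3941 and 3985 in mechanical 21%, 3158 and 3865 in spontaneous 100%, and 5225 and 5478 in spontaneous 21% oxygen. It fell by 0.61 ± 0.13 with pure oxygen in spontaneous breathing (adjusted p = 0.021) and by 0.62 ± 0.13 in mechanical 100% relative to spontaneous 21% oxygen (adjusted p = 0.018). Each call was lost when a sample of spontaneous 21% oxygen was left out (−0.64 without letter a and −0.58 without letter b, adjusted p = 0.061 and 0.071, for pure oxygen, and −0.66 and −0.59, adjusted p = 0.058 and 0.071, for mechanical 100%). The call for pure oxygen was also lost without spontaneous 100% letter a (−0.46, adjusted p = 0.083) and that of mechanical 100% without mechanical 100% letter a (−0.52, adjusted p = 0.12). Fdx1, the ferredoxin of the mitochondrial P450 enzymes, fell by 0.61 ± 0.13 in mechanical 100% relative to mechanical 21% oxygen (adjusted p = 0.0098), with an adjusted p of 0.064 without mechanical 21% letter a (−0.49). The list median was −0.19 in that comparison, beside 0.12 over all tested genes.

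Outside the Cyp1 family, 46 P450 genes were on the array and 19 were tested. Mechanical 100% against mechanical 21% oxygen had 7 called higher and 1 lower, with a list median of 0.20 beside 0.12 over all tested genes, against shares of 20.7% and 14.4% over all probe sets. In ventilation at 21% oxygen 4 were called lower and none higher (list median −0.37 beside −0.05, shares 7.49% and 7.00%). Ventilation at 100% oxygen had 1 higher and 2 lower (shares 16.6% and 10.4%), spontaneous 100% against 21% oxygen 1 higher and 3 lower (7.06% and 9.71%), the interaction 4 higher and none lower (16.9% and 10.5%), and mechanical 100% against spontaneous 21% oxygen 1 higher and 3 lower (7.49% and 7.02%).

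Cyp2e1, an enzyme of ethanol and small solvent oxidation, was lower in pure oxygen in either way of breathing, as Cyp1a1 was, and was not called for ventilation. It read 1455 and 1638 in mechanical 100%, 2778 and 2708 in mechanical 21%, 1433 and 1409 in spontaneous 100%, and 2935 and 2737 in spontaneous 21% oxygen. It fell by 0.98 ± 0.12 with pure oxygen in spontaneous breathing and by 0.81 ± 0.12 under mechanical ventilation (adjusted p = 0.0019 in each), and it changed with ventilation by 0.12 at 100% oxygen (adjusted p = 0.50) and by −0.05 at 21% oxygen (adjusted p = 0.82). These Cyp2e1 calls were kept in each alternative run. Cyp2b15 had an interaction of 1.56 ± 0.17 (adjusted p = 7.4e-04) and rose by 1.17 ± 0.12 in mechanical 100% relative to mechanical 21% oxygen (adjusted p = 4.7e-04). Cyp2b2 fell by 1.11 ± 0.13 in mechanical 100% relative to spontaneous 21% oxygen (adjusted p = 0.0018), which shrank to −0.28 under quantile scaling (adjusted p = 0.080). The Cyp2b genes are related, and whether any signal is shared between their probe sets was not tested.

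The relatives of the receptor in the bHLH-PAS family, which includes hypoxia and clock factors, had 4 tested genes of 6 on the array. In 100% against 21% oxygen under mechanical ventilation 3 rose and none fell (list median 1.05 beside 0.12), where 20.7% of all probe sets were called higher, and in the interaction 3 were higher and none lower (1.35 beside 0.15), where 16.9% of all probe sets were. Bmal1, among the 3 each time, passed the filter mainly through mechanical 100% oxygen. The filter thus partly sets the list's counts and medians in comparisons involving that group, and they support no result about the family. With the lot line as a block the interaction calls were lost for Bmal1 (1.76, adjusted p = 0.22), Hif1a (0.98, adjusted p = 0.34) and Per2 (1.22, adjusted p = 0.23), and that of Hif1a was lost in 8 of 18 alternatives. Ventilation at 100% oxygen had 2 higher (share 16.6%), ventilation at 21% oxygen 1 lower (share 7.49%), and pure oxygen in spontaneous breathing no call. In mechanical 100% against spontaneous 21% oxygen 1 was higher (share 7.49%), Bmal1 (1.15, adjusted p = 0.031), a call lost in 10 of 20 alternatives. Bmal1, the clock factor that pairs with Clock, read 342 and 353 in mechanical 100%, against 105 and 112 in mechanical 21%, 129 and 64.8 in spontaneous 100%, and 148 and 123 in spontaneous 21% oxygen. Its readings in spontaneous 100% and mechanical 21% oxygen lay under the brightest bacterial control reading of 140.2, and it passed the filter mainly through mechanical 100% oxygen, so its change with ventilation at 100% oxygen, 1.54 ± 0.28 (adjusted p = 0.0084), has no exact size. Because the filter let Bmal1 be tested mainly through that group, its calls in comparisons involving the group support no result. Per2, a clock repressor, fell by 1.22 ± 0.21 with ventilation at 21% oxygen (adjusted p = 0.0086, and 0.061 without mechanical 21% letter b, −1.04) and rose by 1.14 ± 0.21 in mechanical 100% relative to mechanical 21% oxygen (adjusted p = 0.0049). Hif1a, the hypoxia factor that shares Arnt with the receptor, rose by 0.95 ± 0.21 in mechanical 100% relative to mechanical 21% oxygen (adjusted p = 0.0098). That call was lost without mechanical 100% letter a (0.83, adjusted p = 0.057) or mechanical 21% letter a (0.89, adjusted p = 0.057), and its change with ventilation at 100% oxygen, 0.85 (adjusted p = 0.021), lost its call under quantile scaling (0.66, adjusted p = 0.052).

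Of 10 tested targets of the hypoxia factors, 2 were called higher and 3 lower in 100% against 21% oxygen under mechanical ventilation, beside 20.7% higher and 14.4% lower over all probe sets and with a list median of −0.12 beside 0.12 over all tested genes. The interaction had 2 higher and 2 lower (shares 16.9% and 10.5%), ventilation at 100% oxygen 1 higher and 1 lower (16.6% and 10.4%), pure oxygen in spontaneous breathing 1 higher and 1 lower (7.06% and 9.71%), ventilation at 21% oxygen 1 lower (7.49%), and mechanical 100% against spontaneous 21% oxygen 1 higher (7.49%). P4ha1, a prolyl hydroxylase of collagen, rose by 0.83 ± 0.10 with pure oxygen in spontaneous breathing (adjusted p = 0.0021) and by 0.66 ± 0.10 under mechanical ventilation (adjusted p = 0.0026). The size of the latter depended on scaling, at 1.29 under quantile scaling and 0.98 under cyclic loess. Vegfa, the endothelial growth factor, rose by 1.06 ± 0.15 in mechanical 100% relative to mechanical 21% oxygen (adjusted p = 0.0017). Slc2a1, the glucose transporter Glut1, rose by 1.04 ± 0.17 with ventilation at 100% oxygen (adjusted p = 0.0051).

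The genes whose log2 values ran closest to each member were sought among 3178 tested genes over the 8 samples, as a description. For Cyp1a1 these were Scg5 (r = 0.98), Cpt2, Ly6al, Cxxc5 and Coro1b (r = 0.97 each). Scg5 followed the order of Cyp1a1 within a narrow range, at 270 and 246 in mechanical 100%, 331 and 343 in mechanical 21%, 233 and 220.1 in spontaneous 100%, and 299 and 292 in spontaneous 21% oxygen, and was called in no comparison. For Cyp1b1 they were Ezr, Ddx21 (r = 0.98 each) and F3 (r = 0.97), the last of which encodes tissue factor. F3 read 3444 and 3215 in mechanical 100%, 2084 and 2020.0 in mechanical 21%, 1407 and 1367 in spontaneous 100%, and 1909 and 1971 in spontaneous 21% oxygen. The closest genes to M26127_s_at, the tested set of Cyp1a2, were Hax1 (r = 0.95), Pip4p1 and Pvalb (r = 0.91 each).

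Markers of other cells and tissues moved between the same groups, and their part in the results for the Cyp1 genes was not tested. Of 9 endothelial markers 6 were on the array, and their summed intensity ran from 13084 to 14937 in mechanical 100%, 9724 to 11023 in mechanical 21%, 9199.5 to 9269 in spontaneous 100%, and 15056 to 18542 in spontaneous 21% oxygen. Of the 5 tested endothelial markers 4 had a positive interaction past the threshold, in a comparison with 16.9% of probe sets called higher. They were Ace (2.20, adjusted p = 1.3e-04), Kdr (1.44, adjusted p = 0.011), Flt1 (1.67, adjusted p = 0.014) and Pecam1 (0.99, adjusted p = 0.023). With the lot line as a block the calls of Kdr (1.59, adjusted p = 0.15), Flt1 (0.77, adjusted p = 0.59) and Pecam1 (0.61, adjusted p = 0.52) were lost, and Pecam1 lost its call in 7 of 19 alternatives. Liver markers, of which all 8 were on the array, summed to 4769 to 5555 in mechanical 100%, 3073 to 3269 in mechanical 21%, 4331 to 4650 in spontaneous 100%, and 2184 to 2462 in spontaneous 21% oxygen, with Tat at or below 0 on every array. With pure oxygen in spontaneous breathing Ttr (2.75, adjusted p = 4.9e-04), Alb (1.97, adjusted p = 0.0023) and Serpina1 (0.57, adjusted p = 0.037), all genes of secreted liver proteins, were called higher among the 5 tested liver markers. In that comparison 7.06% of all probe sets were called higher. Ttr read 59.1 and 112 in spontaneous 21% oxygen, and Alb 125 and 188. All but the last lay under the brightest bacterial control reading of 140.2, so the sizes of the Ttr and Alb changes are not exact.

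Summed markers of further tissues and cell types, among them cells of lung, also differed between groups, and the source of their signal was not tested. Summed brown fat markers were 139 to 266 in mechanical 100%, 11511 to 11733 in mechanical 21%, 3028 to 3471 in spontaneous 100% and 1094 to 1134 in spontaneous 21% oxygen, with Plin1 at or below 0 on every array. T lymphocyte markers summed to between 21332 and 23160 in mechanical 21% oxygen and to no more than 1486 in any sample of the other groups. Skeletal muscle markers were 1845 to 2089 in mechanical 100%, 6990.3 to 7273 in mechanical 21%, 24054 to 24566 in spontaneous 100% and 4690 to 5002 in spontaneous 21% oxygen. Squamous epithelium markers were 162 to 634 in mechanical 100%, 1380 to 1499 in mechanical 21%, 7204 to 7620 in spontaneous 100% and 1376 to 1883 in spontaneous 21% oxygen. Smooth muscle markers were 13881 to 14019 in mechanical 100%, 14002 to 14225 in mechanical 21%, 12110 to 12215 in spontaneous 100% and 15262 to 16732 in spontaneous 21% oxygen. Of these 3 of 4 were called lower for pure oxygen in spontaneous breathing, beside 9.71% of all probe sets. The fourth, Tagln, went the other way without a call, at 7941 and 8079 in spontaneous 100% against 6942 and 6149 in spontaneous 21% oxygen. Blood markers were 8864 to 10961 in mechanical 100%, 14835 to 19565 in mechanical 21%, 17599 to 23271 in spontaneous 100% and 21490 to 25146 in spontaneous 21% oxygen. Alveolar type 2 markers were 27244 to 29866 in mechanical 100%, 44506 to 48664 in mechanical 21%, 38066 to 51089 in spontaneous 100% and 54362 to 65437 in spontaneous 21% oxygen. They were lowest in mechanical 100% oxygen, as were the blood, alveolar type 1, skeletal muscle, squamous and brown fat sums. In mechanical 100% oxygen 3 of 4 type 2 markers were called lower than in spontaneous 21% oxygen, beside 7.02% of all probe sets. Their changes under other scalings are not given here. Alveolar type 1 markers were 10590.5 to 13051 in mechanical 100%, 16224 to 16702 in mechanical 21%, 14698 to 17222 in spontaneous 100% and 19555 to 21497 in spontaneous 21% oxygen. Club cell markers were 13939.5 to 14400 in mechanical 100%, 12240.5 to 13519 in mechanical 21%, 13468 to 13941 in spontaneous 100% and 15861 to 17211 in spontaneous 21% oxygen. Brown fat and T lymphocyte sums were highest in mechanical 21% oxygen, and skeletal muscle and squamous sums in spontaneous 100% oxygen. Whether any of these signals bears on the Cyp1 levels was not tested.

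Across arrays the trimmed mean intensity lay between 800.5 and 801.1, and between 18.4% and 19.9% of probe sets read at or below 0. The 99th percentile was 7111 to 8352 on the mechanical 100% arrays and 9934 to 14547 on the others, and quantile scaling and cyclic loess shifted the median of the mechanical 100% group by −0.12 and −0.20 on the log2 scale, changes being relative to the deposited scaling. Under quantile scaling the share of calls that were higher fell to 48.6% for oxygen under mechanical ventilation, against 58.9% in the fit reported, and to 51.4% for the interaction, against 61.7%. Cyclic loess gave 48.4% for oxygen under mechanical ventilation and 49.1% for the interaction.

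The description of 4 arrays ends with a lot line that names no lot, namely those of spontaneous 21% oxygen, of mechanical 100% letter a and array B of letter b, and the other 5 have none. For ventilation at 21% oxygen and for oxygen in spontaneous breathing the line and the group cannot be told apart, except through the sample measured on both kinds of array, which read 333 for Cyp1a1 on its array with the line and 305 on its array without it. In the same order the Cyp1b1 sets read 1548 and 1482 (rc_AI176856_at), 601 and 756 (U09540_at) and 735 and 723 (U09540_g_at). M26127_s_at of Cyp1a2 read 134 and 349. The arrays without the line include 1 of mechanical 100% oxygen, so the spread in the following tests comes from the other groups. Among arrays without the line, Cyp1a1 rose by 1.02 with ventilation at 100% oxygen (adjusted p = 0.041) and fell by 1.78 with 100% oxygen under ventilation (adjusted p = 0.0051). For Cyp1b1 those changes were 1.12 (adjusted p = 0.016) and 0.54 (adjusted p = 0.077). Among arrays with the line, mechanical 100% minus spontaneous 21% oxygen was −0.69 for Cyp1a1 (adjusted p = 0.11) and 0.57 for Cyp1b1 (adjusted p = 0.082). A fit with the line as a block estimated it within mechanical 100% oxygen alone and treated arrays A and B of 1 sample as separate arrays, because their correlation could not be estimated, so its p-values count more arrays than samples. In that fit the interaction of Cyp1b1 was 1.09 for rc_AI176856_at (adjusted p = 0.14), 3.03 for U09540_at (adjusted p = 0.071) and 1.97 for U09540_g_at (adjusted p = 0.12). The ventilation change of Cyp1a1 at 21% oxygen was 1.09 (adjusted p = 0.14), and the oxygen change in spontaneous breathing was −1.71 for Cyp1a1 (adjusted p = 0.036) and −0.54 for Cyp1b1 (adjusted p = 0.23).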

How the data were processed

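The authors deposited intensity values on a linear scale for 8799 probe sets on 9 arrays. Their software, background method and scaling are not given in the sources used here. Equal 2% trimmed means show a common scale. The 59 control probe sets were left out. Values below 0 were set to 0 before log2(intensity + 40), an offset of 5% of the trimmed mean. Arrays A and B of 1 sample were averaged on the log2 scale. The dimmest 40% of probe sets by mean were left untested, which kept 5244.

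limma 3.58.1 in R 4.3.3 fitted 1 mean per group to the 8 samples (eBayes with trend). Benjamini-Hochberg adjustment ran over the 5244 probe sets within each of 6 comparisons, with a threshold of 0.05. The number of arrays limits the precision. The procedure was tested on simulated data. A gene outside the members was represented by its brightest probe set. In the array annotation 7006 probe sets had 1 symbol, 308 had several and 1426 had none, and gene numbers tied 6985 to the RefSeq table (GRCr8). Figures used matplotlib 3.10.9 (Python 3.11.15).

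Genes named beside the members were, from each list, those with the 3 smallest p among the called, a short set named in any case, and the genes of highest correlation with each member. The markers Ace, Kdr, Flt1, Pecam1, Ttr, Alb, Serpina1, Tat, Plin1 and Tagln were named after their values were seen. The members and lists were chosen with earlier results of these data known. Letters a and b did not pair samples: deviations of same-letter samples correlated at −0.128 to 0.066 between groups, so the letter was tried as a block only as an alternative. Other alternatives were quantile and cyclic loess scaling, offsets of 1% and 10%, no filter or one of 60%, array A or B alone, the lot line as a block, no variance trend, the compared groups alone and each sample left out. Fits within arrays with or without the lot line were added after seeing the data.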

Additional observations from a re-analysis of the deposited data

Results flagged for a closer look

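The oxygen change of Cyp1b1 differed between mechanical and spontaneous breathing by the interaction test itself, in each of its 3 tested probe sets. The interaction was 1.16 for rc_AI176856_at (adjusted p = 0.0050), 2.41 for U09540_at (adjusted p = 0.0050) and 1.80 for U09540_g_at (adjusted p = 0.0072). With the lot line as a block these calls were lost, with an adjusted p of 0.14 for rc_AI176856_at, 0.071 for U09540_at and 0.12 for U09540_g_at. The sets measure one gene in the same samples and are not independent of each other. Groups of 2 samples were too small for a test of single outlying samples.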

How the results depend on the processing

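The log2 changes of Cyp1a1 and of the brightest Cyp1b1 set kept their direction in most alternatives, and the calls with the widest margin, ventilation at 100% oxygen for either gene and oxygen in either way of breathing for Cyp1a1, were kept in each alternative run. Without the filter, adjusted p rose to 0.088 for Cyp1a1 with ventilation at 21% oxygen (0.80), and for Cyp1b1 to 0.051 with oxygen in spontaneous breathing (−0.59) and 0.062 for mechanical 100% minus spontaneous 21% oxygen (0.56). That last Cyp1b1 change was also lost under quantile scaling (0.41, adjusted p = 0.097), cyclic loess (0.35, adjusted p = 0.13), no trend (0.56, adjusted p = 0.057), the compared groups alone (0.56, adjusted p = 0.086) and arrays with the lot line (0.57, adjusted p = 0.082). For Cyp1b1 oxygen in spontaneous breathing was lost with the compared groups alone (−0.59, adjusted p = 0.076) and the lot line as a block (−0.54, adjusted p = 0.23), and oxygen under mechanical ventilation under quantile scaling (0.41), cyclic loess (0.34), the lot block and arrays without the line (0.54 each). The lot block also ended the calls of Cyp1a1 for ventilation at 21% oxygen (1.09) and of Cyp1b1 for the interaction (1.09), and turned the uncalled Cyp1a1 interaction (−0.067). Cyp1a1 in mechanical 100% minus spontaneous 21% oxygen passed the threshold under quantile scaling and cyclic loess (−0.88 each), an offset of 10% (−0.67), a filter of 60% (−0.72) and the replicate block (−0.72, adjusted p = 0.040).

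With the letter as a replicate block, the Cyp1b1 calls for oxygen in spontaneous breathing (−0.59, adjusted p = 0.053) and for mechanical 100% minus spontaneous 21% oxygen (0.56, adjusted p = 0.066) were lost. The letters share only a name, and beside these and the Cyp1a1 value above no call of the brightest sets changed.

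With 1 sample left out, Cyp1a1 changes ranged from 0.69 to 0.90 for ventilation at 21% oxygen. Those of Cyp1b1 ranged from −0.72 to −0.46 for oxygen in spontaneous breathing, 0.51 to 0.63 under mechanical ventilation, 0.43 to 0.68 for mechanical 100% minus spontaneous 21% oxygen, and −0.14 to 0.11 for ventilation at 21% oxygen. The last also turned under quantile scaling (0.0026), cyclic loess (0.0046) and the lot block (0.032). Uncalled values that turned sign were, for ventilation at 21% oxygen, U09540_at under quantile scaling (0.026), cyclic loess (0.053) and, with a left-out sample, U09540_at (−0.12 to 0.030), U09540_g_at (−0.031 to 0.53) and M26127_s_at (−0.69 to 0.053). M26127_s_at also turned for ventilation at 100% oxygen with array A (0.20), the lot block and arrays without the line (0.022 each) and a left-out sample (−0.56 to 0.38), for oxygen in spontaneous breathing with the lot block (−0.11), for the interaction under quantile scaling (−0.034), cyclic loess (−0.11), array B (−0.063) and a left-out sample (−0.24 to 0.69), and for mechanical 100% minus spontaneous 21% oxygen with array B, the lot block and arrays with the line (−0.084 each) and a left-out sample (−0.26 to 0.67). The cause of these turns was not tested.

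Counts of called probe sets were 760 and 1413 for ventilation at 21% and 100% oxygen, 879 and 1841 for oxygen in spontaneous and mechanical breathing, 1439 for the interaction and 761 for mechanical 100% minus spontaneous 21% oxygen. Without the filter, which tests more probe sets, they were 490, 796 and 540 for the first 3 and 397 for the last. With the compared groups alone, hence fewer samples, ventilation at 21% oxygen gave 473, oxygen in spontaneous breathing 574 and the last comparison 503. The lot block gave 106, 470, 121, 898 and 151 in the first 5, and arrays without the line 497 for ventilation at 100% oxygen and 933 for oxygen under ventilation. Leaving out 1 sample gave 216 to 701, 464 to 1423, 364 to 794, 956 to 1899, 980 to 1318 and 314 to 674. Signal over background limits Ahr, 2 of 3 Cyp1a2 sets and 1 Cyp1b1 set, which could not be tested.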
